A study of Arabidopsis thaliana with 12 samples.

Results

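Transcript levels of 5 class III peroxidase genes, Prx37 (AT4G08770), AT4G08780, PRX52 (AT5G05340), AT1G49570 and AT5G06730, were followed in etiolated seedlings of Arabidopsis thaliana (ecotype Columbia). Each of the 5 has 1 probe set that the probe table pairs with no other gene, among 22746 gene probe sets of the Affymetrix ATH1 array. They had been selected on their log2 signals in these same arrays, with earlier results known, and every comparison of the 6 groups was taken as used in that choice. Their levels and differences are therefore given as a description with errors and without p-values. Where it is stated below how many or which of the 5 were past a threshold of p, that too is description. The family list held 73 genes, of which 55 had a single-gene probe set, so 50 other class III peroxidase genes could be set beside the 5. The 6 groups had 2 arrays each: the msg2 mutant with 100 nM 24-epibrassinolide (24-eBL), the msg2 mutant with mock treatment, the axr2 mutant with 24-eBL, the axr2 mutant with mock treatment, wild type with 24-eBL and wild type with mock treatment. All seedlings had 8 h of light at 22 °C and then 4 days of darkness on medium with sucrose, and total RNA of whole seedlings was hybridised. The labels name the mutants without their alleles and describe the 2 arrays of a group as biological replicates, without saying how many seedlings or cultures each came from.

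As background, class III peroxidases are secreted haem enzymes of plants that use hydrogen peroxide to oxidise phenolic compounds. In the cell wall they couple monolignols into lignin and cross-link structural proteins and phenolic esters, which stiffens the wall, and some can also form radicals that loosen it. Brassinosteroids, of which 24-eBL is one, promote cell expansion in dark-grown hypocotyls and alter root and root-hair growth. The msg2 and axr2 mutations are dominant and stabilise repressors of the Aux/IAA family, so that auxin-responsive transcription is reduced. Because such mutations alter the protein, the level of the mutated gene's own transcript does not check the mutant labels.

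Signals are given on the log2 scale as deposited. A value is called dim if it did not exceed the 40th percentile of its own array, a bound that lay between 5.99 and 6.34, because detection calls were not used here. Over the 15025 probe sets tested, replicate arrays correlated at 0.968 to 0.979 (Pearson r), and arrays of different groups at 0.890 to 0.968. PORB, a protochlorophyllide reductase gene that is active in dark-grown seedlings, had signals between 12.50 and 13.20 on all 12 arrays. Of 4 listed markers of dark growth and plastids it was the only 1 with a single-gene probe set. Its level alone does not check the dark-grown state. In whole seedlings fewer cells of a type and less RNA per cell cannot be told apart. Levels of different probe sets are not compared with each other. With 2 arrays a group, arrays that do not overlap are no evidence of a difference by themselves. For example, treated and mock wild-type arrays did not overlap for AT5G19890, another family gene, at a difference of 0.16 (adjusted p = 0.84 in limma).

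Prx37, a wall peroxidase whose overexpression is known to restrict growth in Arabidopsis, had its highest signals in axr2 and its lowest in mock-treated wild type. Its signals were 9.17 and 9.05 in treated msg2, 7.92 and 7.73 in mock msg2, 9.24 and 9.21 in treated axr2, 9.73 and 9.48 in mock axr2, 8.05 and 7.82 in treated wild type, and 7.13 and 6.89 in mock wild type. No array was dim. From the highest group mean to the lowest, the order was mock axr2, treated axr2, treated msg2, treated wild type, mock msg2 and mock wild type. Only treated wild type and mock msg2, neighbours in that order, had overlapping arrays. Mock axr2 stood 2.59 ± 0.19 above mock wild type (SE of the fit, 2 arrays a group), a 6.04-fold difference. Mock msg2 stood 0.81 ± 0.19 above mock wild type, or 1.75-fold. With 24-eBL the gene was higher than with mock by 1.29 ± 0.19 in msg2 (2.44-fold) and by 0.92 ± 0.19 in wild type (1.90-fold). In axr2 the treated arrays lay below the mock arrays without overlap, with a difference of −0.38 ± 0.19. The 24-eBL response in axr2 minus that in wild type was −1.31 ± 0.26, and −1.19 with WT_BR replicate 1 left out. Among treated seedlings both mutants lay above wild type, by 1.18 ± 0.19 in msg2 and 1.29 ± 0.19 in axr2.

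**Figure D1:**
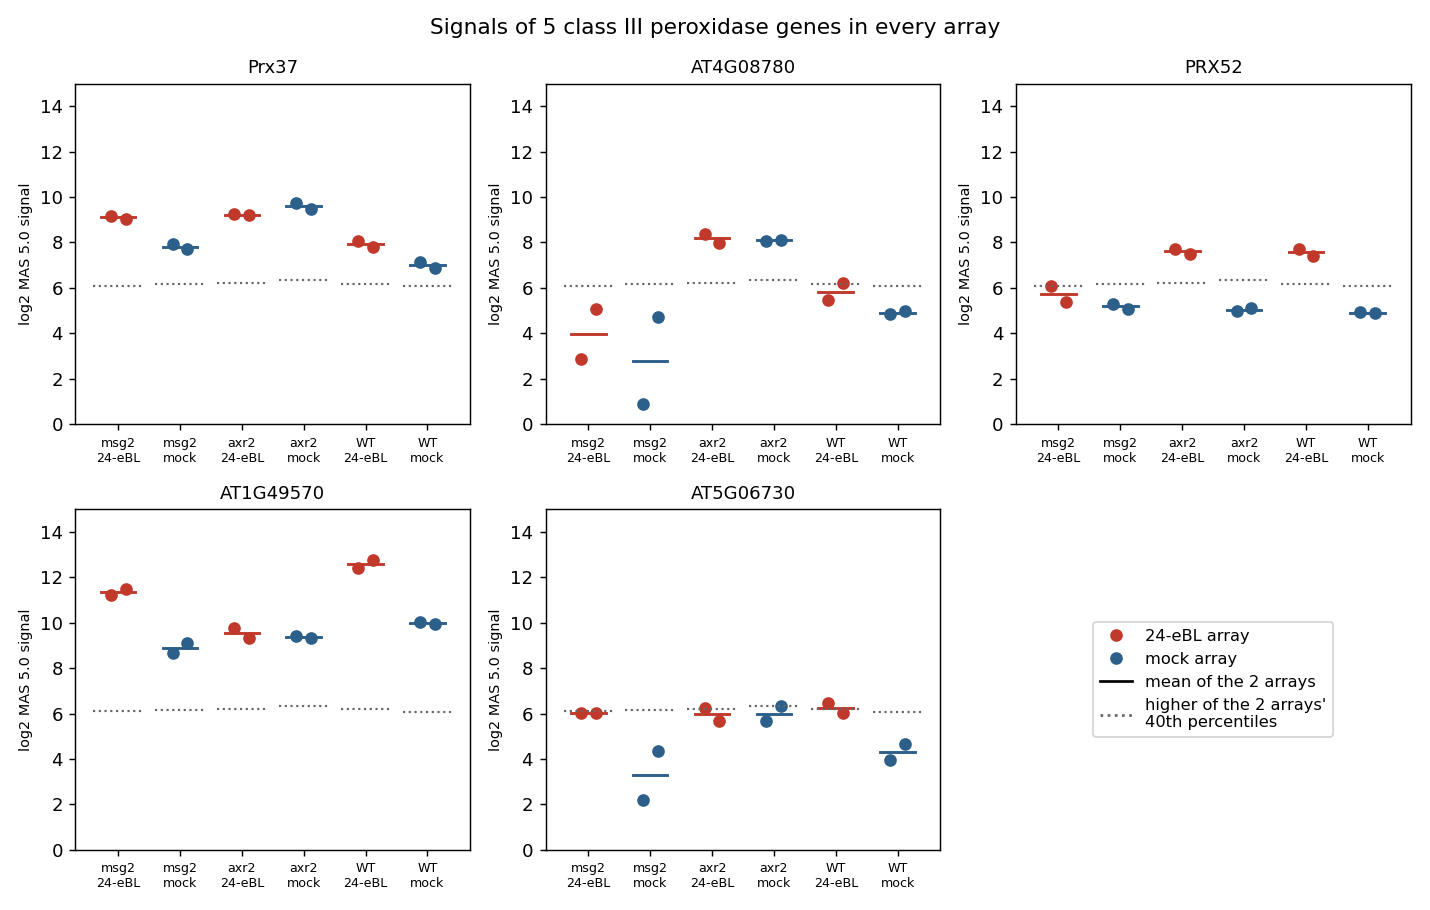
Log2 MAS 5.0 signal (vertical axes) of the 5 genes in the 6 groups (horizontal axes); points are single arrays, solid bars the mean of the 2 arrays of a group, and dotted bars the higher of the 40th percentiles of those 2 arrays. AT4G08780 lies above the dotted bars on all 4 axr2 arrays, and PRX52 on both treated axr2 and both treated wild-type arrays.

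AT4G08780 is the next protein-coding gene after Prx37 on chromosome 4 in the RefSeq annotation, and axr2 was the genotype in which both arrays of each group exceeded the dim range. It had 8.38 and 7.98 in treated axr2 and 8.08 and 8.10 in mock axr2. In treated wild type it had 5.46 and 6.21, the first of them dim, and in mock wild type 4.85 and 4.97, both dim. In msg2 all arrays were dim, at 2.89 and 5.05 with 24-eBL and 0.87 and 4.70 with mock. The gene passed the filter on low signal through 5 arrays, the 4 of axr2 and 1 of treated wild type, so a difference of axr2 from the other genotypes was part of what let it be examined. Mock axr2 was at least 4.15-fold above mock wild type (3.18 ± 0.88), a fold computed after dim values were set to the percentile. With 24-eBL axr2 was at least 3.94-fold above wild type (2.34 ± 0.88). Mock msg2 lay −2.13 ± 0.88 from mock wild type, with no fold since every array of both groups was dim. After dim values were set to the percentile that difference became 0.10. Treated arrays lay above mock arrays in wild type (0.93 ± 0.88) and overlapped them in axr2 (0.09 ± 0.88). In msg2 treated and mock arrays overlapped too (1.18 ± 0.88), and the difference was −0.73 with msg2_mock replicate 1 left out and 3.10 with msg2_mock replicate 2 left out. It became −0.07 after dim values were set to the percentile. The SE of 0.88 is pooled over all 6 groups, whose SDs ran from 0.01 in mock axr2 to 2.71 in mock msg2. With the compared arrays fitted alone the SE of the axr2 response was 0.23. Probe sets of neighbouring family members may share hybridising sequence, which was not tested.

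PRX52, known for its part in the lignin of stem fibres, was dim without 24-eBL in all 3 genotypes. Its mock signals were 5.30 and 5.07 in msg2, 4.98 and 5.10 in axr2, and 4.92 and 4.88 in wild type. Treated arrays reached 7.72 and 7.51 in axr2 and 7.72 and 7.42 in wild type, whereas treated msg2 had 6.09 and 5.37, the second of them dim. The gene passed the filter on low signal through 5 arrays, all of them treated. A rise with 24-eBL was thus part of what let it be examined. The treated groups of axr2 and wild type overlapped, and both lay above every msg2 array. The treated level was at least 2.44-fold above mock in axr2 (2.57 ± 0.40) and at least 2.90-fold above mock in wild type (2.67 ± 0.40). In msg2 the difference was 0.55 ± 0.40, with the 2 treated arrays above the 2 mock arrays. Among treated seedlings wild type was at least 2.78-fold above msg2 (−1.84 ± 0.40 for msg2 minus wild type), while axr2 differed from wild type by 0.04 ± 0.40. The 24-eBL response in msg2 minus that in wild type was −2.13 ± 0.56, and the response in axr2 minus that in wild type was −0.10 ± 0.56. After dim values were set to the percentile the responses were −0.04 in msg2, 1.29 in axr2 and 1.54 in wild type.

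AT1G49570 was above the dim range on all 12 arrays. Its signals were 11.22 and 11.49 in treated msg2, 8.65 and 9.10 in mock msg2, 9.78 and 9.33 in treated axr2, 9.43 and 9.35 in mock axr2, 12.42 and 12.76 in treated wild type, and 10.03 and 9.95 in mock wild type. Treated wild type was highest, followed by treated msg2, mock wild type, treated axr2, mock axr2 and mock msg2. Arrays overlapped between neighbours in that order only for treated and mock axr2. The treated level was 5.57-fold above mock in msg2 (2.48 ± 0.19) and 6.07-fold above mock in wild type (2.60 ± 0.19). In axr2 the same difference was 0.17 ± 0.19. The response in axr2 minus that in wild type was −2.43 ± 0.27, and the response in msg2 minus that in wild type was −0.12 ± 0.27. Both mutants lay below wild type without 24-eBL, by −1.12 ± 0.19 in msg2 and −0.60 ± 0.19 in axr2. With 24-eBL msg2 stood −1.24 ± 0.19 and axr2 −3.04 ± 0.19 from wild type, which is 8.21-fold lower for axr2.

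AT5G06730 stayed near or within the dim range in every group. It had 6.05 and 6.01 in treated msg2, 2.19 and 4.37 in mock msg2, 6.27 and 5.66 in treated axr2, 5.67 and 6.32 in mock axr2, 6.47 and 6.03 in treated wild type, and 3.98 and 4.68 in mock wild type. Of the 12 values 5 exceeded the 40th percentile of their array, and the highest, 6.47, did so against a percentile of 6.19. All of those 5 were of treated arrays except that of axr2_mock replicate 2. A rise with 24-eBL was thus part of what let the gene pass the filter on low signal. Treated and mock arrays did not overlap in msg2 (2.75 ± 0.69) or in wild type (1.93 ± 0.69), and overlapped in axr2 (−0.03 ± 0.69). After dim values were set to the percentile those differences became −0.07 in msg2 and 0.22 in wild type. The difference between mock axr2 and mock wild type, 1.67 ± 0.69, became 0.30. Among the comparisons of 24-eBL with mock, a fold could be given in wild type alone, at least 1.16-fold, because the higher group held dim values in both mutants. It lies beside PA2 (AT5G06720), another peroxidase gene of the family list, which had no single-gene probe set and is not analysed here.

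**Figure D2:**
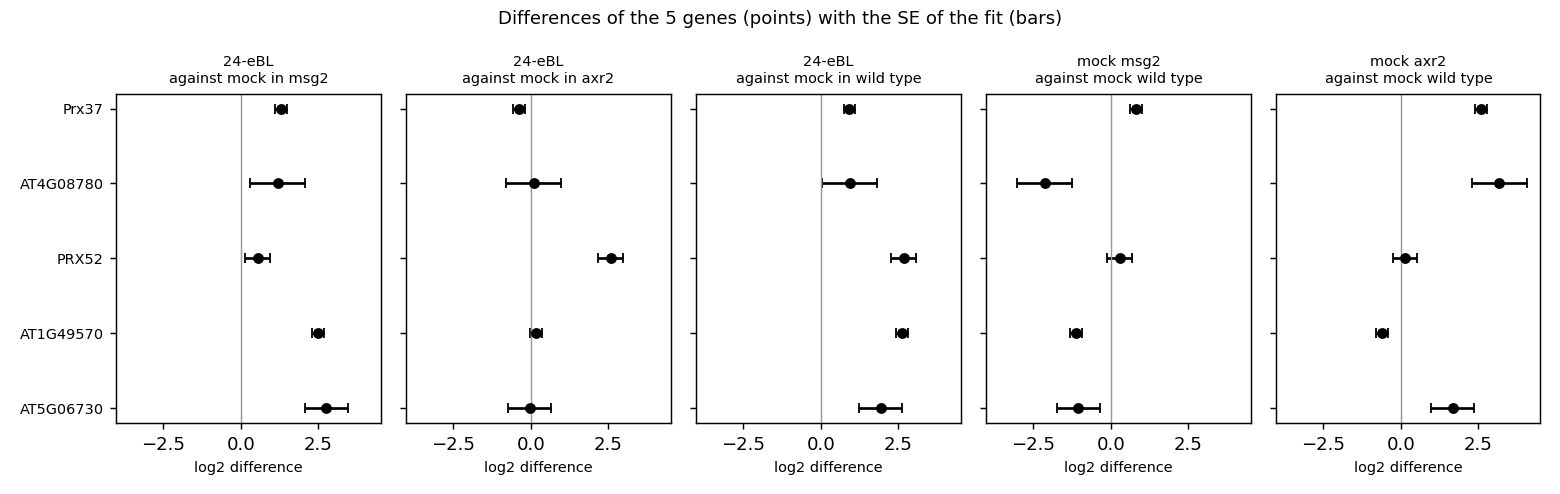
Log2 differences (horizontal axes) of the 5 genes (rows) in 5 comparisons (panels); points are the fitted differences and bars the SE of the fit with 2 arrays a group. AT1G49570 is displaced to the right for 24-eBL in msg2 and wild type and lies near 0 in axr2, and PRX52 is displaced in axr2 and wild type.

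At an adjusted p under 0.05 over all tested probe sets, 3 of the 5 genes were called with 24-eBL in msg2, all higher, where 3.92% of all tested probe sets were called (1.52% higher and 2.40% lower). In axr2 1 was called, higher (2.41% of all, 0.692% higher and 1.72% lower), and in wild type 3, all higher (4.67% of all, 2.20% higher and 2.47% lower). Without 24-eBL 2 were called in msg2 against wild type, 1 in each direction (4.12% of all, 2.12% higher and 2.00% lower). In axr2 against wild type 2 were called higher and 1 lower (35.5% of all, 20.5% higher and 15% lower). For the difference of response from wild type 2 were called in axr2, both negative (2.60% of all, 1.11% positive and 1.49% negative). In msg2 0 were called (0.213% of all, 0.140% positive and 0.0732% negative), and 1 had an unadjusted p under 0.05 in limma. These counts follow from how the genes had been chosen and support nothing further. The 3 called with 24-eBL in msg2 included AT5G06730, whose difference became −0.07 after dim values were set to the percentile. Prx37 in mock msg2 against wild type was not past the threshold in every fit with 1 array left out (differences of 0.69 to 0.93).

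The 5 genes did not vary as one group. Over the 12 arrays Pearson r between pairs ran from −0.11 for Prx37 and AT1G49570 to 0.68 for AT4G08780 and AT5G06730. The neighbours Prx37 and AT4G08780 had r = 0.50. The points share arrays and groups, and low signals enter most of these values. The genes whose 6 group means followed each of the 5 most closely, out of 8149 tested single-gene probe sets, included no other class III peroxidase gene of the list. For Prx37 they were AT5G10460, AT5G40810 and AT3G05470, with r of 0.99 over the group means, and over the 12 arrays r was 0.45, 0.72 and 0.96. For AT1G49570 they were AT2G37110, AT5G18470 and AT1G15640, with r of 0.98, 0.98 and 0.97 over the group means and 0.73, 0.94 and 0.94 over the arrays. For PRX52 they were AT3G63270, TOP3A and AT1G33600 (0.99, 0.98 and 0.98 over the group means). For AT4G08780 they were OTP70, AT1G74800 and AT1G59265 (all 0.99 over the group means), and for AT5G06730 AT4G11550, UBP20 and AT3G04230 (all 0.98). For these last 3 of the 5 genes r over the arrays was lower, from 0.61 to 0.83. The r values over the group means are the highest of 8149 searched, each over 6 points, so high values follow from the search. Of the tested genes only 42 were on the family list, the 5 included, so the absence of other family genes says little.

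Among the 50 other class III peroxidase genes 37 were tested. The other 13 exceeded the 40th percentile of their array on at most 1 of the 12 arrays. Of the 37, 27 were called in at least 1 of the 7 comparisons. Mock axr2 against mock wild type alone called 17 of the 37 and 35.5% of all tested probe sets. No share over all tested probe sets was computed for the count of 27, or for calls in all 3 genotypes given below. With 24-eBL 6 rose and 6 fell in msg2 (32.4% of the 37, against 3.92% of all tested probe sets), 4 rose and 4 fell in axr2 (21.6%, against 2.41%), and 4 rose and 7 fell in wild type (29.7%, against 4.67%). Their median difference was 0.08 in msg2, −0.19 in axr2 and 0.03 in wild type, beside −0.01, −0.03 and 0.04 over all tested probe sets. Each genotype thus held both rises and falls. Of the 37, 11 were dim on at least 1 array. AT5G47000, which fell in wild type, exceeded the percentile on mock arrays alone. A fall with 24-eBL was thus part of what let AT5G47000 be tested. AT3G49960, which fell in msg2 and wild type, was dim on every treated array of those genotypes. With arrays centred on their medians, 5 rose and 3 fell in axr2. The count in msg2 was 7 with msg2_mock replicate 1 left out, and the count in wild type was 6 with WT_mock replicate 2 left out and 5 with WT_BR replicate 1 left out.

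AT4G36430 was the 1 other family gene that rose with 24-eBL in all 3 genotypes. Its signals were 10.49 and 10.65 in treated msg2, 8.75 and 8.59 in mock msg2, 10.57 and 10.53 in treated axr2, 9.61 and 9.50 in mock axr2, 10.19 and 10.37 in treated wild type, and 7.69 and 7.93 in mock wild type. The treated levels of the 3 genotypes lay close together, and the mock levels were ordered axr2, msg2, wild type without overlap. It rose 3.73-fold in msg2 (1.90 ± 0.16, adjusted p = 1.2e-06), 1.99-fold in axr2 (0.99 ± 0.16, adjusted p = 0.0019) and 5.54-fold in wild type (2.47 ± 0.16, adjusted p = 2.1e-08). Without 24-eBL it was higher in axr2 than in wild type (1.75 ± 0.16, adjusted p = 3.4e-07) and higher in msg2 than in wild type (0.86 ± 0.16, adjusted p = 0.006). The msg2 call ended when WT_mock replicate 1 or msg2_mock replicate 1 was left out (highest adjusted p 0.092). Prx37 likewise had its mock levels ordered axr2, msg2, wild type, but its treated levels stayed apart between wild type and the mutants.

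AT5G39580 rose in msg2 (0.98 ± 0.17, adjusted p = 0.0021) and wild type (1.43 ± 0.17, adjusted p = 3.1e-05), and had a difference of 0.61 in axr2 that was not called. AT1G68850 had 7.35 and 7.13 in treated msg2 against 6.06 and 6.05 in mock msg2, both mock values dim, and 7.58 and 7.30 in treated wild type against 5.97 and 5.80 in mock wild type, both dim. It rose at least 2.14-fold in msg2 (adjusted p = 0.02; a call that ended, with p of at most 0.19, when any 1 of the 4 msg2 arrays was left out) and at least 2.65-fold in wild type (adjusted p = 0.0018). In axr2 it had 7.04 and 7.54 with 24-eBL and 7.24 and 6.98 with mock, so that its mock level was at least 2.11-fold above mock wild type (adjusted p = 0.0023). AT5G19890 rose in msg2 (2.78-fold, 1.47 ± 0.25, adjusted p = 0.0014), with 11.57 and 11.60 against 10.12 and 10.10 in mock msg2. In wild type it had 11.37 and 11.55 with 24-eBL and 11.33 and 11.28 with mock. Its response in msg2 minus that in wild type, 1.32 ± 0.35, was not called (adjusted p = 0.17). AT4G30170 rose 1.72-fold in axr2 (0.78 ± 0.13, adjusted p = 0.0026), and had differences of 0.46 in msg2 and 0.39 in wild type that were not called. Its response in axr2 minus that in wild type was not called either (adjusted p = 0.30). The calls of AT5G19890 in msg2 and of AT4G30170 in axr2 ended without the intensity trend, and that of AT1G68850 in msg2 without the filter on low signal.

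AT2G18980, AT1G30870 and AT2G39040 fell with 24-eBL in all 3 genotypes. AT2G18980 had 10.07 and 9.90 in treated msg2 against 11.20 and 11.13 in mock msg2, 10.33 and 10.08 in treated axr2 against 11.61 and 11.13 in mock axr2, and 10.06 and 10.32 in treated wild type against 11.21 and 11.19 in mock wild type. It fell by 1.18 ± 0.17 in msg2, 1.17 ± 0.17 in axr2 and 1.01 ± 0.17 in wild type (adjusted p = 0.00039, 0.00062 and 0.0011). AT1G30870 was 5.09-fold lower in msg2 (−2.35 ± 0.24, adjusted p = 8.2e-06), 2.51-fold lower in axr2 (adjusted p = 0.0041) and 2.36-fold lower in wild type (adjusted p = 0.0036). Its axr2 call ended when axr2_mock replicate 1 or axr2_BR replicate 2 was left out (highest adjusted p 0.072), and its wild-type call when WT_mock replicate 2 or WT_BR replicate 1 was left out (highest adjusted p 0.095). AT2G39040 was 4.37-fold lower in msg2 (adjusted p = 0.0046), at least 3.44-fold lower in axr2 (adjusted p = 0.0018) and 3.22-fold lower in wild type (adjusted p = 0.021). Its msg2 call ended when msg2_mock replicate 1 or msg2_BR replicate 1 was left out (highest adjusted p 0.065), and its wild-type call when WT_mock replicate 2 or WT_BR replicate 1 was left out (highest adjusted p 0.295). Without the intensity trend the calls of AT2G39040 ended in all 3 genotypes (adjusted p = 0.054 in axr2) and that of AT1G30870 in axr2 (adjusted p = 0.057). The wild-type call of AT2G39040 also ended without the filter on low signal. AT4G26010 fell in msg2 (−1.34 ± 0.20, adjusted p = 0.00045) and in wild type (−0.84 ± 0.20, adjusted p = 0.018). In axr2 its difference of −0.37 ± 0.20 was not called. Its wild-type call ended when WT_mock replicate 1, WT_mock replicate 2 or WT_BR replicate 1 was left out. That call ended as well without the intensity trend and with the compared arrays fitted alone (highest adjusted p 0.095).

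Markers of root-hair cells fell with 24-eBL beside these genes. Of 9 listed root-hair genes 2 had a single-gene probe set, the expansin genes EXPA7 and EXPA18. EXPA18 had 6.44 and 6.22 in treated msg2 against 9.49 and 9.13 in mock msg2, 7.66 and 6.96 in treated axr2 against 8.87 and 8.85 in mock axr2, and 6.39 and 6.64 in treated wild type against 8.46 and 8.61 in mock wild type. It fell in each genotype (adjusted p = 4.5e-07, 0.00092 and 2.3e-05 in msg2, axr2 and wild type). EXPA7 fell at least 2.8-fold in msg2 and at least 2.4-fold in wild type (adjusted p = 0.0039 and 0.0094), with all 4 treated arrays of those genotypes dim. In axr2 it was not called (−1.40 ± 0.45). It exceeded the percentile on every mock array but on no treated array except axr2_BR replicate 1. A fall with 24-eBL was thus part of what let it be tested. Its msg2 call ended when msg2_mock replicate 1 or msg2_BR replicate 2 was left out (highest adjusted p 0.092), and its wild-type call when WT_mock replicate 2 or WT_BR replicate 2 was left out (highest adjusted p 0.11) or the intensity trend was not used (adjusted p = 0.051). The part of root-hair cells in the falls of the peroxidase genes was not tested. The root endodermis list (8 genes) and the xylem list (7 genes) had 0 single-gene probe sets each and are not analysed here.

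Without 24-eBL 9 of the 37 other family genes were higher and 8 lower in axr2 than in wild type (45.9%, against 35.5% of all tested probe sets). Their median difference was −0.10, beside 0.13 over all tested probe sets. With arrays centred on their medians, which moved the median of all tested probe sets to −0.09, 8 were higher and 12 lower. AT4G36430, given above, was among the genes that rose. AT5G19890 was 3.89-fold lower in mock axr2 (9.95 and 8.74) than in mock wild type (11.33 and 11.28; adjusted p = 1.1e-05). AT3G21770 was 2.02-fold lower (−1.01 ± 0.14, adjusted p = 2e-05) and AT4G30170 1.91-fold lower (−0.93 ± 0.13, adjusted p = 4e-05). In msg2 against wild type 2 of the 37 were higher and 2 lower (10.8%, against 4.12% of all). AT4G26010 and AT4G36430 were higher in msg2 (1.05 ± 0.20 and 0.86 ± 0.16, adjusted p = 0.006 each). AT5G64120 (PRX71) and AT5G19890 were lower in msg2 (−0.81 ± 0.17 and −1.19 ± 0.25, adjusted p = 0.0096 and 0.011). These differences were not particular to msg2. In mock axr2 PRX71 was likewise lower than in mock wild type (−0.91 ± 0.17, adjusted p = 0.000365) and AT4G26010 higher (0.81 ± 0.20, adjusted p = 0.0044). PRX71 has been described as limiting cell expansion. The count of 4 in msg2 rested on single arrays: it was 0 with WT_mock replicate 1 or msg2_mock replicate 1 left out, and 2 with WT_mock replicate 2 or msg2_mock replicate 2 left out.

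**Figure D3:**
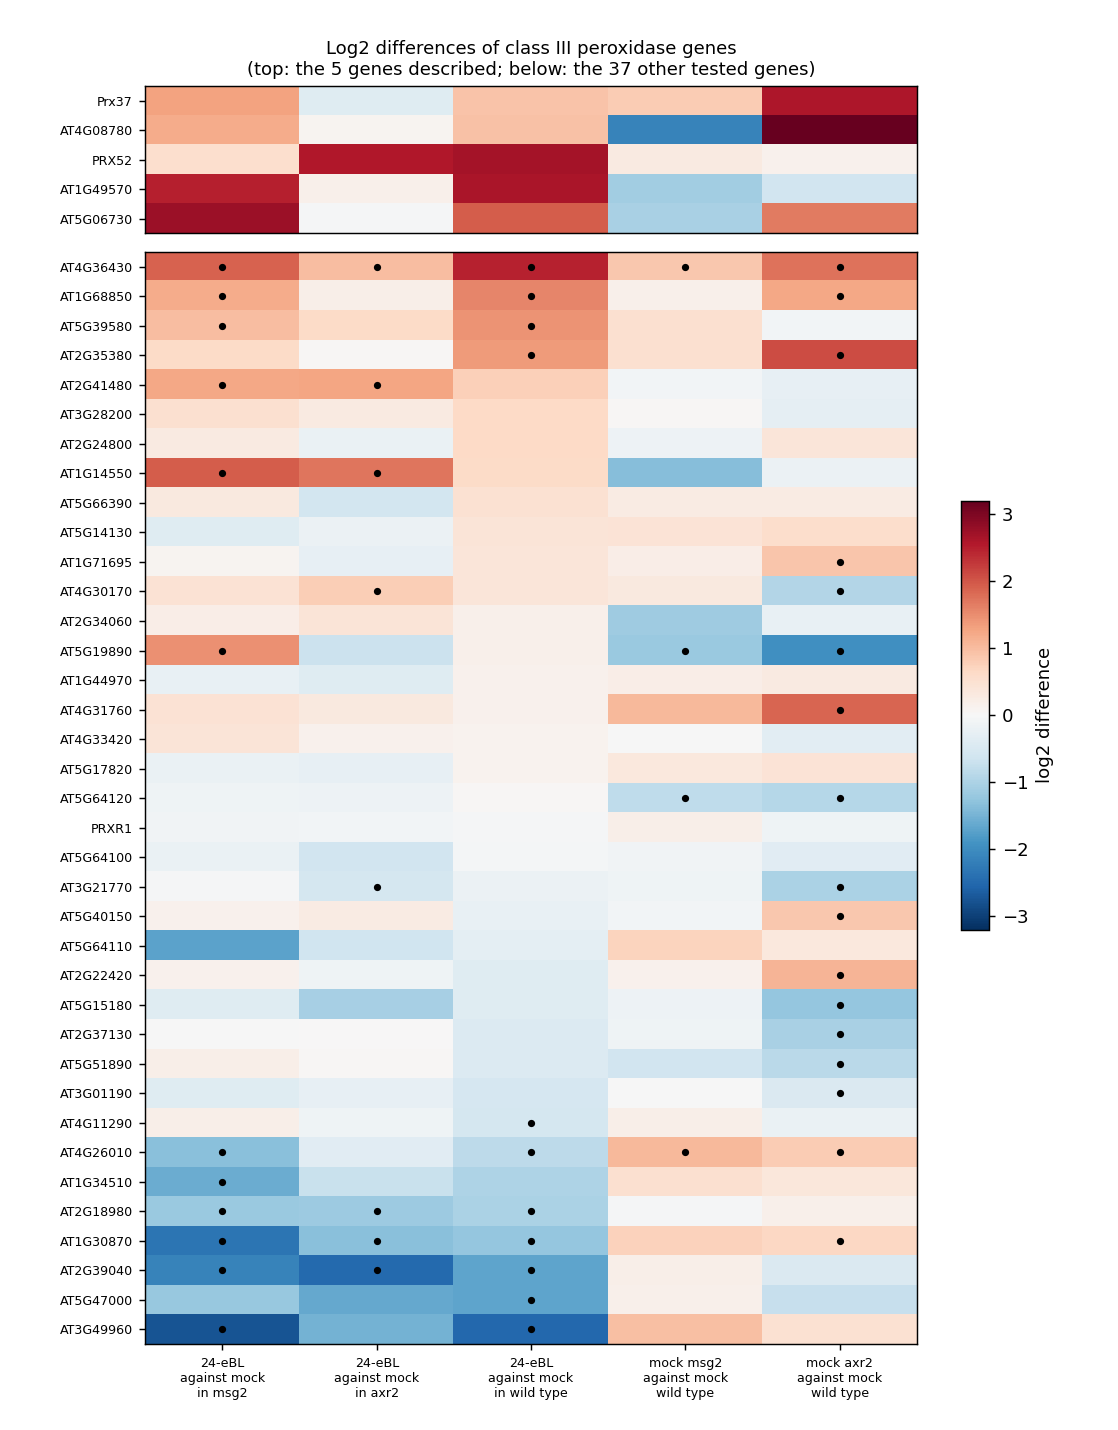
Log2 differences (colour scale) of class III peroxidase genes (rows) in 5 comparisons (columns), with the 5 genes described in the upper block and the 37 other tested genes, ordered by their response in wild type, in the lower block; black dots mark calls at an adjusted p under 0.05 and are drawn for the lower block. AT4G36430 carries dots in all 5 columns.

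The response to 24-eBL differed between axr2 and wild type in 2 of the 37 other family genes (5.41%, against 2.60% of all tested probe sets). For AT4G36430 the response in axr2 minus that in wild type was −1.48 ± 0.23 (adjusted p = 0.0016). AT5G66390 (PRX72), known from lignin formation, had 10.53 and 10.60 in treated axr2 against 11.19 and 11.13 in mock axr2, and 11.28 and 11.51 in treated wild type against 10.79 and 11.00 in mock wild type. Its difference of response was −1.10 ± 0.23 (adjusted p = 0.014), a call that ended with WT_mock replicate 1 left out (adjusted p = 0.080), with arrays centred on their medians and without the intensity trend (highest adjusted p 0.095). Between msg2 and wild type 0 of the 37 were called by limma (0.213% of all tested probe sets), and 6 had an unadjusted p under 0.05.

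**Figure D4:**
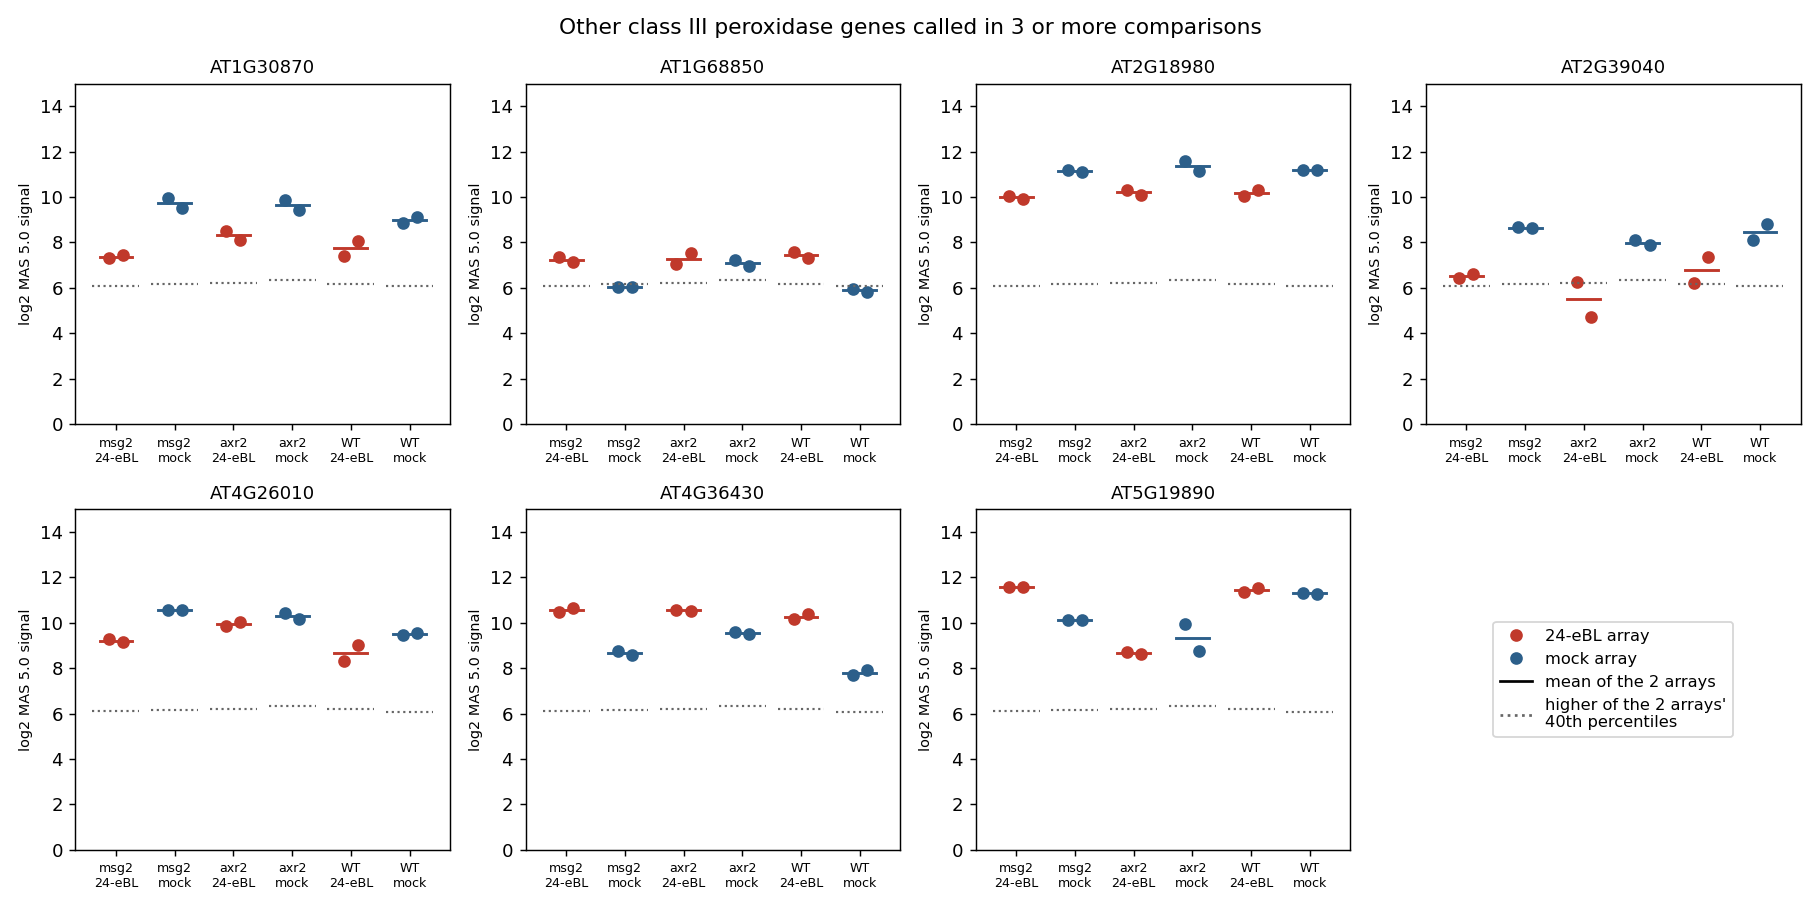
Log2 MAS 5.0 signal (vertical axes) in the 6 groups (horizontal axes) of the 7 other class III peroxidase genes called in 3 or more of the 7 comparisons; points are single arrays, solid bars the mean of the 2 arrays of a group, and dotted bars the higher of the 40th percentiles of those 2 arrays. In AT2G18980, AT1G30870 and AT2G39040 both treated arrays lie below both mock arrays in every genotype.

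Few genes that supply the substrates of these enzymes could be read. Of 19 listed monolignol synthesis genes 2 were tested. CCR2, a cinnamoyl-CoA reductase gene, was higher with 24-eBL in msg2 (7.66 and 7.09 against 5.94 and 6.17, the first of these mock values dim; adjusted p = 0.016) and higher in mock axr2 than in mock wild type (7.36 and 6.83 against 6.36 and 6.24; adjusted p = 0.045). Its msg2 call ended when msg2_mock replicate 1, msg2_mock replicate 2 or msg2_BR replicate 1 was left out (highest adjusted p 0.239), and without the filter on low signal (adjusted p = 0.059). Its axr2 call ended when any 1 of 6 arrays was left out, both arrays of mock wild type and of treated axr2 among them (highest adjusted p 0.289). It ended as well under quantile normalisation, with arrays centred on their medians, without the filter and with the compared arrays fitted alone (highest adjusted p 0.146). HCT, a hydroxycinnamoyl transferase gene, was lower in mock axr2 than in mock wild type (−0.63 ± 0.13, adjusted p = 0.0013) and was not called in any response to 24-eBL. Of 10 listed NADPH oxidase genes, whose products generate superoxide from which hydrogen peroxide forms, 1 was tested. This gene, AT4G25090, was higher in mock axr2 than in mock wild type (1.04 ± 0.25, adjusted p = 0.0031) and was not called in the other comparisons. Of 17 listed laccase genes 1 had a single-gene probe set, LAC16, and it was dim on all 12 arrays.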

How the data were processed

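The values were log2 MAS 5.0 signals of 12 Affymetrix ATH1 arrays as deposited by the authors; the submitters' design text also names GeneSpring 11.0. The 2% trimmed mean of the linear signal was 500.05 to 500.06 on every array, so arrays were not scaled again. Of 22810 probe sets 64 controls were left out. Genes were named where a probe set was paired with 1 gene (13513 probe sets, 503 with several and 8730 with none), with symbols of TAIR10.1.

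Probe sets above the 40th percentile of at least 2 arrays were tested (15025). In limma 3.58.1 (R 4.3.3) 1 mean per group was fitted to all 12 arrays, with eBayes and an intensity trend. Benjamini-Hochberg adjustment ran over all tested probe sets in each of 7 comparisons, with calls at an adjusted p under 0.05. The procedure was tested on simulated data. P-values weigh a difference between groups against 1 residual spread, pooled within the groups over all 12 arrays and moderated by eBayes. Each SE uses that same spread, so it is not the spread of the compared arrays alone. An "at least" fold has dim values raised to the 40th percentile.

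The 5 genes and the lists were chosen with earlier results of these data known. Other family genes were named if among the 4 smallest adjusted p of a comparison or called in 3 or more; companion lists, up to 2 called genes a comparison; and the 3 genes most like each of the 5. Alternatives were other scaling, an offset of 16, raised dim values, other filters, no trend, compared arrays alone, a replicate block and leaving out each array.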

Additional observations from a re-analysis of the deposited data

Results flagged for a closer look

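The response to 24-eBL in axr2 minus that in wild type passed the test of the difference for 2 of the 37 other tested class III peroxidase genes, AT4G36430 (−1.48) and AT5G66390 (−1.10), where 2.60% of all tested probe sets were called and 1.49% were called negative. The call of AT5G66390 ended with WT_mock replicate 1 left out, with arrays centred on their medians and without the intensity trend. AT1G49570 (−2.43) and Prx37 (−1.31) were past the same threshold, but they had been chosen with this comparison known, so their values are a description. Prx37 was no longer past it with WT_BR replicate 1 left out (−1.19). In AT4G36430 and Prx37 the mock level was higher in axr2 than in wild type, whereas in AT1G49570 it was lower.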

How the results depend on the processing

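Counts of the 37 other family genes called changed by more than 1.5 times in these settings. Without the intensity trend 2 were called with 24-eBL in axr2 (against 8), 7 in wild type (against 11), 1 for mock msg2 against wild type (against 4) and 1 for the axr2 difference of response (against 2). With arrays centred on their medians that last count was 1. With the compared arrays fitted alone, 7 were called for mock msg2 against wild type (against 4) and 1 for the msg2 difference of response (against 0). The causes were not tested. With 1 array left out in turn the counts ran from 7 to 13 for 24-eBL in msg2, 6 to 9 in axr2, 5 to 13 in wild type, 0 to 4 for mock msg2 and 14 to 18 for mock axr2 against wild type, 0 to 1 for the msg2 difference of response and 1 to 3 for the axr2 difference. When dim values were set to the percentile, 1 called difference of the 5 genes changed sign, that of AT5G06730 with 24-eBL in msg2, to −0.0675 (against 2.75). Differences that had not been called also changed sign there: with 24-eBL in msg2 those of PRX52 (to −0.04) and AT4G08780 (to −0.07), in mock msg2 against wild type those of AT4G08780 and AT5G06730 (both to 0.10), and the msg2 differences of response of AT4G08780 (to −0.24) and AT5G06730 (to −0.28). The differences that changed sign in other settings, or with 1 array left out, had not been called either. Over all settings 680 values of the 5 genes stayed within the residual SD of the reported ones and 40 others moved by more. PRX52 and AT5G06730 were not tested with the filter at the 60th percentile. Same-numbered arrays did not deviate together (r −0.08 to 0.07 over 15 pairs of groups). With the replicate number as a block 12, 7 and 11 genes were called with 24-eBL in msg2, axr2 and wild type, and the block changed no count by more than 1.5 times. Centring moved the median of all tested probe sets by more than 0.1 for the axr2 response (to 0.10), mock axr2 against wild type (to −0.09), the msg2 difference of response (to 0.08) and the axr2 difference of response (to 0.11). Precision was limited by 2 arrays a group and, for PRX52, AT4G08780 and AT5G06730, by signals that were dim on 7 of 12 arrays each.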
